A study of Mus musculus with 1 sample.

Results

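The CC chemokines described here are 10 genes given by name: Ccl2, Ccl7, Ccl12, Ccl8, Ccl6, Ccl9, Ccl24, Ccl3, Ccl4 and Ccl5. All 10 were found among the 32285 genes of the deposited matrix. They were read in 1 single-cell RNA library of control MC38 tumors. MC38 is a mouse colon carcinoma line, here grown under the skin of female C57BL/6J mice that were 4 to 6 weeks old at purchase. The library is labelled WT with no shRNA named, while the series design describes a non-targeting shRNA (shNTC) arm beside an Atp6v0a1 knockdown arm, which is not analysed here. Cells of 5 tumors were pooled in equal proportions before capture, from 1 tumor line and with red blood cells lysed, so no cell can be traced to an animal. There are no replicates and no test: every interval below is an exact 95% interval that covers counting error only.

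CC chemokines are small secreted proteins that steer leukocytes along gradients by binding G protein-coupled CC receptors. Ccl2, Ccl7 and Ccl12 bind Ccr2 and draw monocytes out of the blood into inflamed tissue, and tumors are known to use this route to gain macrophages. Ccl3, Ccl4 and Ccl5 attract T cells, NK cells and macrophages. Ccl6 and Ccl9 act on Ccr1, Ccl8 of the mouse is known as a Ccr8 ligand, and Ccl24 is an eotaxin that acts on Ccr3.

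The library held 5307 called cells with 106631000 UMIs, of which 4443 cells were kept (median 10396 UMIs, each a counted transcript molecule). Clustering without any chemokine ligand gene gave 1279 macrophage-like, 240 monocyte-like, 41 DC-like (dendritic), 167 T and NK-like, 49 CAF-like (cancer-associated fibroblast) and 1830 Shisal2b- and Rhox5-high cells. The last group stands where the tumor cells are sought, but the MC38 list of 7 genes was not met. Krt8, Krt18, Krt19, Epcam and Cdh1 lay between 0 and 0.157 UMIs per 1000000 UMIs (CPM) in it, although the sample is labelled epithelial. Xist, expected from cells of the female host, stood at 3.15 CPM in it and at 198 to 1198 CPM in the host groups. The Shisal2b- and Rhox5-high cells had 3 of 7 fibroblast genes (Col5a1, Dcn and Pdgfra) and 2 of 6 pericyte genes raised. The fibroblast list summed to 2198 CPM in them and to 26399.5 CPM in CAF-like cells. The CAF-like cells had 6 of 7 fibroblast and 6 of 6 pericyte genes raised. The T and NK-like cluster also had 4 of 5 B cell and 4 of 5 mast cell genes raised. The monocyte-like cells had 7 of 8 monocyte and 4 of 7 granulocyte genes raised. Another 211 myeloid-like and 626 other cells stayed unnamed.

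The macrophage-like cells fell into 4 states, named by their raised genes. The interferon-gene state (543 cells) had Ifit2, Ifit3, Gbp5 and Iigp1 raised, and the Arg1-high state (528 cells) had 7 of 8 genes of its list, with Arg1, Spp1 and Mmp12. The proliferating state (186 cells) had 7 of 7 cell cycle genes raised. The smallest state (22 cells) had 4 of 8 genes of its list raised: Lyve1, Folr2, Cd163 and Mrc1, genes known from tissue-resident macrophages that scavenge debris. C1qa, C1qb, C1qc and Apoe of that list were not raised. The list summed to 43402 CPM there, against 53789.5 in the interferon-gene, 49542 in the Arg1-high and 32735 in the proliferating state. The monocyte genes Vcan and F13a1 were also raised in the smallest state, and the 8 monocyte genes summed to 2460 CPM, against 4422 CPM in monocyte-like cells.

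9 of the 10 genes lie in the CC chemokine cluster of chromosome 11, and Ccl24 lies apart at chr5:135569937-135573049 (GRCm38). Along chromosome 11 the order is Ccl2 (chr11:82035571-82037453), Ccl7, Ccl12, Ccl8, and then, 1409 kb on, Ccl5, Ccl9, Ccl6, Ccl3 and Ccl4 (chr11:83662584-83664683). Neighbors sit close: 8.26 kb between Ccl2 and Ccl7, 9.24 kb between Ccl9 and Ccl6, 11.8 kb between Ccl12 and Ccl8, and 13.2 kb between Ccl3 and Ccl4. RefSeq promoter sequences (GRCm38.p6) were held for Ccl3, Ccl6, Ccl8, Ccl9 and Ccl12. The 250 bases before the start are shown for both neighbor pairs among them, since Ccl6 and Ccl9 moved together across the cell groups while Ccl8 and Ccl12 did not. Capitals mark the 2 motif matches, both in Ccl9.

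Ccl6, chr11:83593088-83593337, minus strand: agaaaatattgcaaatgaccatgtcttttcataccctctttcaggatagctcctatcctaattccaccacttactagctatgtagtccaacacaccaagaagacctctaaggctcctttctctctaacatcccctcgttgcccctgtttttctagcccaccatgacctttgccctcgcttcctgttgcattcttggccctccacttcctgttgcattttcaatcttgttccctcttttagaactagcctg
Ccl9, chr11:83578637-83578886, minus strand: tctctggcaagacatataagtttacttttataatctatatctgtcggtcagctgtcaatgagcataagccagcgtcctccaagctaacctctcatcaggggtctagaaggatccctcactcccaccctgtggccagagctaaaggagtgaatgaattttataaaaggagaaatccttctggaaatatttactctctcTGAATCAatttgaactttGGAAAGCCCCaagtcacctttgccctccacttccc
Ccl12, chr11:82101595-82101844, plus strand: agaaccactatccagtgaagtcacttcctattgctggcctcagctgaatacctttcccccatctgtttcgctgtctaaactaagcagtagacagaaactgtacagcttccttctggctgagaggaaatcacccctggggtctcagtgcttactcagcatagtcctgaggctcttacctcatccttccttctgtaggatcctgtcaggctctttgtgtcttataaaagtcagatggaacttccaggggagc
Ccl8, chr11:82114935-82115184, plus strand: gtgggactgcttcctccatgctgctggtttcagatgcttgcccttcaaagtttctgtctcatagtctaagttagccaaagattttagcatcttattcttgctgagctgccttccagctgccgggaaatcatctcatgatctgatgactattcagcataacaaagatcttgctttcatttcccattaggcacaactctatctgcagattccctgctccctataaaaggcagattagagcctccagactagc

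The motifs searched on both strands were an AP-1 site (TGANTCA), a kappaB site (GGGNNNNTCC) and an interferon-stimulated element (GAAANNGAAA). Ccl9 held the AP-1 letters at bases -53 to -47 and the kappaB letters, on the opposite strand, at bases -35 to -26 before its start, with no overlap. The other 4 promoters held none of the 3. Over 32851 promoters of the same length, 6.75% held the AP-1, 16.5% the kappaB and 2.98% the interferon letters. A match in letters is no evidence that a factor binds there.

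The groups differed in which chemokine led. Levels are UMIs of a gene summed over the cells of a group per 1000000 UMIs of that group, and since each 3' transcript end is counted once they can be set side by side between genes. Ccl2 made up 72.6% of the UMIs of the 10 genes in Shisal2b- and Rhox5-high cells, Ccl5 made up 59.1% in T and NK-like cells, and Ccl8 made up 1294 of 2586 UMIs in Lyve1- and Folr2-high macrophages. Macrophage-like cells as a whole had no such leader: Ccl12 (19.1%), Ccl8 (18.1%) and Ccl5 (17.9%) shared the lead. Summed over the 10 genes, the level was 18496 CPM (17790.4 to 19224) in Lyve1- and Folr2-high macrophages, 3929.9 in macrophage-like, 3522 in T and NK-like, 2801 in monocyte-like, 2131 in Shisal2b- and Rhox5-high, 1045 in CAF-like and 469.6 CPM (406 to 541) in DC-like cells. In the plot of levels by group, no gene was high in all 9 groups.

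**Figure D1:**
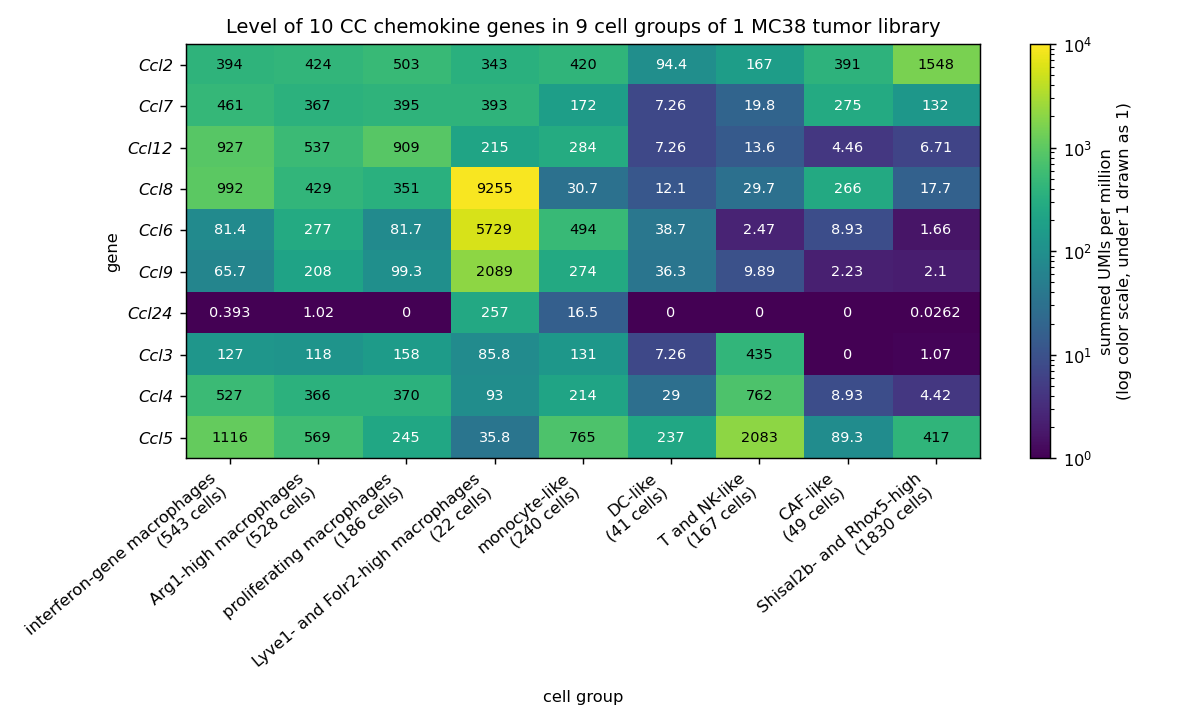
Each cell gives the level of 1 of 10 CC chemokines (rows) in 1 of 9 cell groups (columns) as summed UMIs per 1000000, with color on a log scale. Ccl2 peaks in Shisal2b- and Rhox5-high cells at 1548 CPM, Ccl5 in T and NK-like cells at 2083 CPM, and Ccl8, Ccl6, Ccl9 and Ccl24 in the 22 Lyve1- and Folr2-high macrophages.

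Ccl2, the main monocyte attractant of the family, was the chemokine of the Shisal2b- and Rhox5-high cells. Its level there was 1548 CPM (1539 to 1557), against 427 CPM (416 to 438) in macrophage-like, 419.7 CPM (386 to 456) in monocyte-like and 391 CPM (335 to 453) in CAF-like cells. The ratio to macrophage-like cells was 3.62 (3.53 to 3.72). Below the first group came proliferating macrophages at 503 CPM (477 to 531), and the next 5 groups in the order (Arg1-high, monocyte-like, interferon-gene, CAF-like and Lyve1- and Folr2-high) did not differ from the next among them beyond counting error. T and NK-like cells (167 CPM) and DC-like cells (94.4 CPM) were lowest. After each cell was thinned to 1000 UMIs, Ccl2 was seen in 52.9% (50.6 to 55.2) of 1823 Shisal2b- and Rhox5-high, 27.2% (24.8 to 29.8) of 1278 macrophage-like and 12.6% (7.51 to 19.4) of 135 T and NK-like cells, a type not known for Ccl2. The shares without thinning were 95.1%, 80.5% and 50.9%, at median depths of 38310, 10092 and 4068 UMIs.

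Ccl2, Ccl5 and Ccl7 stood far above the level of free RNA in Shisal2b- and Rhox5-high cells, and the other 7 genes stood closer to it. Free RNA is RNA from other cells that enters a droplet. 8 macrophage genes (C1qa, C1qb, C1qc, Csf1r, Adgre1, Ctss, Tyrobp and Ms4a7), which those cells should lack, were read there at 0.387% to 0.761% of their macrophage-like level. On the same scale Ccl2 stood at 362%, Ccl5 at 59.3%, Ccl7 at 32.4% and Ccl8 at 2.49%. Ccl3, Ccl4, Ccl6, Ccl9, Ccl12 and Ccl24 stood between 0.748% and 1.36%. By level, 1 gene (Ccl2) was at least 2-fold higher there than in macrophage-like cells, beside 27.6% of 13647 genes, and Ccl3, Ccl4, Ccl6, Ccl7, Ccl8, Ccl9 and Ccl12 were at least 2-fold lower, beside 20.7% of 13647 genes. Ccl24 had 2 UMIs there and passed the minimum of 20 UMIs only through the Lyve1- and Folr2-high macrophages, so nothing is read from its ratio. The median log2 ratio was -5.45 over the 10 genes and 0.21 over all genes tested, each with 1 CPM added.

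**Figure D2:**
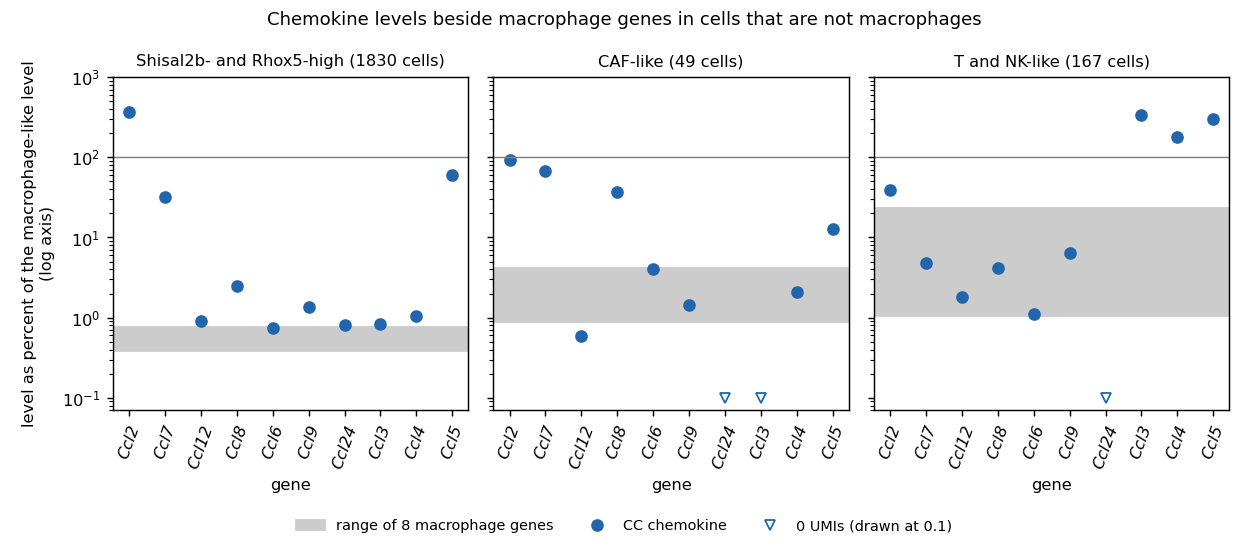
Points give the level of each chemokine as percent of its macrophage-like level (log axis) in Shisal2b- and Rhox5-high, CAF-like and T and NK-like cells, and the gray band spans 8 macrophage genes. Ccl2, Ccl5 and Ccl7 stand far above the band on the left at 362%, 59.3% and 32.4%, Ccl2, Ccl7, Ccl8 and Ccl5 in the middle, and Ccl3, Ccl4, Ccl5 and, less far, Ccl2 on the right.

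Transcripts of the Shisal2b- and Rhox5-high cells were read in other groups as well, on a scale that was chosen after these data were seen. Shisal2b and Rhox5 stood in T and NK-like cells at 14.9% and 7.66% of their level in the high group, and Ccl2 stood at 10.8%, between them. In macrophage-like states the pair together stood at 4.55% to 11%, and Ccl2 at 22.2% to 32.5%. In CAF-like cells the pair stood at 6.87% and Ccl2 at 25.2%. The Ccl2 of T and NK-like cells was not told apart from free RNA, while that of macrophage-like and CAF-like cells was read at a higher share than the pair. How many of those Ccl2 UMIs are free RNA was not tested.

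Within the Shisal2b- and Rhox5-high cells Ccl2 was spread broadly, and Ccl5 and Ccl7 less so. The median cell had 774 CPM of Ccl2, with a 10th to 90th percentile of 65.4 to 3349. The median was 54.7 CPM for Ccl5 and 20.7 CPM for Ccl7, with 90th percentiles of 1158 and 364. For each gene taken alone, the 10% of cells with the most UMIs of it held 51% of the Ccl2, 74.5% of the Ccl5 and 70.5% of the Ccl7 UMIs. Over 1298 of these cells with at least 20000 UMIs, the Spearman correlation of CPM was 0.47 between Ccl2 and its neighbor Ccl7 and 0.07 between Ccl2 and Ccl5. These cells come from 1 library and differ in depth, so both values are descriptions.

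**Figure D3:**
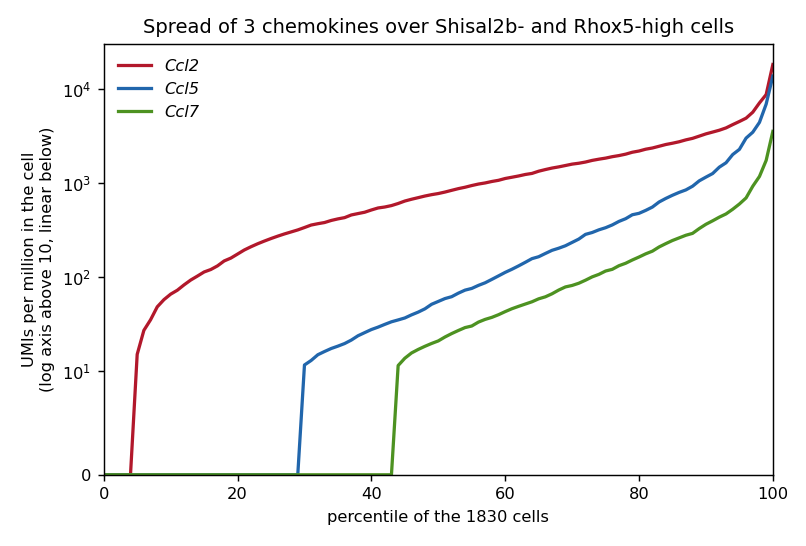
Lines give the level of Ccl2, Ccl5 and Ccl7 in each percentile of the 1830 Shisal2b- and Rhox5-high cells, as CPM in the cell (log axis above 10, linear below). Ccl2 is above 0 in 95.1% of the cells, Ccl5 in 70.9% and Ccl7 in 56.7%.

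3 clusters made up these cells. The first (1227 cells) was led by Tm4sf1, Rrm2 and Shisal2b, the second (466 cells) by H19, Ogn, Fn1 and Col3a1, and the third (137 cells, median 4138 UMIs) by Malat1. Ccl2 stood at 1600.2, 1319 and 1588 CPM in them, and Ccl5 at 368, 648 and 126 CPM. Between the second and the first, the ratio was 1.76 (1.72 to 1.81) for Ccl5, 1.34 (1.28 to 1.41) for Ccl7 and 0.824 (0.811 to 0.837) for Ccl2. Ccl8 (36.8 against 12.9 CPM) and Ccl12 (12.2 against 5.42 CPM) were the 2 genes at least 2-fold higher in the second, beside 9.51% of 12810 genes, both at low levels. None of the 9 genes with at least 20 UMIs was at least 2-fold lower, beside 5.02% of 12810 genes.

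Ccl7, which sits next to Ccl2 and shares its receptor, had most of its UMIs in Shisal2b- and Rhox5-high cells. They held 61.3% of the Ccl7 UMIs in kept cells, and macrophage-like cells held 34.2%. By level, Ccl7 was led by macrophages instead. It stood at 407 CPM (397 to 418) in macrophage-like cells, 275 CPM (228 to 328) in CAF-like, 172 CPM (151 to 196) in monocyte-like and 132 CPM (129 to 134) in Shisal2b- and Rhox5-high cells. The levels in DC-like (7.26 CPM) and T and NK-like cells (19.8 CPM) were far lower and did not differ from each other beyond counting error. The macrophage states lay close together, between 367 CPM in Arg1-high and 461 CPM in interferon-gene macrophages. Ccl12, another Ccr2 ligand, was low outside macrophage-like and monocyte-like cells. It stood at 749 CPM (735 to 764) in macrophage-like and 284 CPM (256 to 314) in monocyte-like cells, but at 4.46 to 13.6 CPM in CAF-like, Shisal2b- and Rhox5-high, DC-like and T and NK-like cells, whose neighbors in the order did not differ beyond counting error. Interferon-gene (927 CPM) and proliferating macrophages (909 CPM) were highest and not told apart, and Lyve1- and Folr2-high macrophages were lowest of the 4 states at 215 CPM (145 to 306).

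The 22 Lyve1- and Folr2-high macrophages were high in Ccl8, Ccl6, Ccl9 and Ccl24. Ccl8 reached 9255 CPM (8758 to 9774), which was 14.8 (14 to 15.7) times its level in the other macrophage-like cells. Ccl6 reached 5729 CPM (5339 to 6140.1), a ratio of 34.5 (31.8 to 37.4), and Ccl9 reached 2089 CPM (1856 to 2342), a ratio of 15.6 (13.7 to 17.7). Ccl24 reached 257 CPM (180.3 to 356), a ratio of 439 (200.4 to 1092) that rests on 36 UMIs here and 8 in all the other macrophage-like cells. These 4 genes were at least 2-fold higher, beside 24.6% of 11036 genes, and Ccl5, Ccl4 and Ccl12 were at least 2-fold lower, beside 7.38% of 11036 genes. Ccl5 stood at 35.8 CPM (11.6 to 83.5) from 5 UMIs, a ratio of 0.0504 (0.0164 to 0.118), and Ccl4 at 93 CPM (49.5 to 159). Ccl2, Ccl7 and Ccl3 lay within 2-fold of the other macrophage-like cells.

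The 4 high genes were not spread alike over the 22 cells. Ccl6 was seen in 22, Ccl9 in 21, Ccl8 in 19 and Ccl24 in 5 of them. The median cell had 5783 CPM of Ccl8, 4512 of Ccl6 and 1808 of Ccl9. For each gene taken alone, the 3 cells with the most UMIs of it held 52% of the Ccl8, 39.8% of the Ccl6, 36.3% of the Ccl9 and 94.4% of the Ccl24 UMIs. After thinning to 1000 UMIs, Ccl6, Ccl8 and Ccl9 were each seen in 86.4% (65.1 to 97.1) of the cells, against 5.54%, 29% and 5.54% of interferon-gene macrophages. In thinned Shisal2b- and Rhox5-high cells, where Ccl6 and Ccl9 were near the free RNA level and Ccl8 stood above it, the shares were 0.274%, 3.35% and 0.329%. Over the other settings the state held 21 to 23 cells, and Ccl8, Ccl6 and Ccl9 stayed at least 2-fold higher wherever their ratio could be computed. Although few, these cells held 52.9% of all Ccl24 UMIs, 19.7% of the Ccl6, 11.1% of the Ccl8 and 10.5% of the Ccl9 UMIs in kept cells.

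Ccl6 and Ccl9, the Ccr1 ligands, followed each other through the other groups too. Monocyte-like cells came second for both, with 494 CPM (457 to 533) of Ccl6 and 274 CPM (246 to 303) of Ccl9. Arg1-high macrophages came next, with 277 CPM (264 to 291) and 208 CPM (197 to 220.3). Proliferating and interferon-gene macrophages followed at 81.7 and 81.4 CPM of Ccl6 and 99.3 and 65.7 CPM of Ccl9. DC-like cells had 38.7 and 36.3 CPM, while T and NK-like, CAF-like and Shisal2b- and Rhox5-high cells had at most 9.89 CPM of either. Ccl24 was seen in 2 of 240 monocyte-like cells, which held 22 UMIs, and was at 0 UMIs in DC-like, T and NK-like and CAF-like cells. For the 167 T and NK-like cells this allows a level of up to 3.71 CPM, taken as 3 UMIs.

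In monocyte-like cells, Ccl6 and Ccl24 were at least 2-fold higher than in macrophage-like cells, beside 3.31% of 11182 genes, and Ccl7, Ccl8 and Ccl12 at least 2-fold lower, beside 10.8% of 11182 genes. The ratio was 2.22 (2.04 to 2.42) for Ccl6 and 5.16 (2.94 to 8.79) for Ccl24. For Ccl6 it ranged from 1.15 to 2.98 over 14 other settings and stayed at 2 or more in 9 of them. The Ccl24 ratio and its interval rest on 1 monocyte-like cell, which held 21 of the 22 UMIs, and on a reference where 36 of 44 UMIs lie in Lyve1- and Folr2-high cells. Without those cells in the reference the ratio was 28.1 (12 to 72.9) for Ccl24, 2.98 (2.72 to 3.25) for Ccl6 and 2.04 (1.82 to 2.29) for Ccl9. Ccl8 showed the widest gap, at 30.7 CPM (22.1 to 41.7) against 712 CPM (697 to 726). Its share of cells after thinning was 2.09% (0.683 to 4.81) in monocyte-like cells and 24.2% (21.9 to 26.6) in macrophage-like cells. Ccl2, Ccl3 and Ccl5 differed little between both groups, with ratios of 0.982 (0.899 to 1.07), 1.02 (0.867 to 1.19) and 1.09 (1.02 to 1.16). The median log2 ratio was 0.00 over the 10 genes and -0.10 over all genes. The 7 granulocyte genes summed to 144 CPM in monocyte-like and 55.3 CPM in macrophage-like cells, and their part in these ratios was not tested.

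Among the larger macrophage states the interferon-gene cells favored Ccl5. Ccl5, an attractant of T cells whose gene is known to respond to interferon, stood at 1116 CPM (1087 to 1145) in them, 569 CPM (550.4 to 589) in Arg1-high and 245 CPM (227 to 265) in proliferating macrophages. The ratio of the interferon-gene state to the other macrophage-like cells was 2.42 (2.32 to 2.52), and Ccl5 was the 1 gene at least 2-fold higher, beside 2.03% of 11036 genes. This ratio ranged from 1.98 to 2.76 over 13 other settings, in which the state held 147 to 543 cells. Ccl6 and Ccl9 were at least 2-fold lower, beside 5.15% of 11036 genes, with ratios of 0.267 (0.24 to 0.296) and 0.32 (0.284 to 0.36). Ccl8 at 992 CPM (965 to 1020.0) and Ccl4 at 527 CPM (507 to 547) were also higher than in the Arg1-high and proliferating states, but by less than 2-fold against all other macrophage-like cells, with ratios of 1.81 (1.74 to 1.89) and 1.45 (1.38 to 1.53). With the Lyve1- and Folr2-high cells left out of the reference, the Ccl8 ratio was 2.45 (2.35 to 2.56).

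The Lyve1- and Folr2-high cells lie in the reference of the other states, and held 36 of the 44 Ccl24, 801 of the 3062 Ccl6, 292 of the 2116 Ccl9 and 1294 of the 9794 Ccl8 UMIs of macrophage-like cells. Outside them Ccl24 had 8 UMIs, below the minimum of 20, so nothing is read from its ratio in the other 3 states. With them in the reference, no gene was at least 2-fold higher in Arg1-high macrophages, beside 2.75% of 11036 genes. The nearest were Ccl9, with a ratio of 1.84 (1.69 to 2.01), and Ccl6, with a ratio of 1.52 (1.42 to 1.64). With them left out, which was tried only after seeing the data, the ratios were 2.7 (2.44 to 2.98) for Ccl9 and 3.4 (3.1 to 3.73) for Ccl6. Over 14 other settings, in which the state held 90 to 528 cells, Ccl9 ranged from 1.31 to 2.88 and Ccl6 from 1.16 to 3.4. Ccl8 was at least 2-fold lower in Arg1-high macrophages, beside 6.58% of 11036 genes, with a ratio of 0.465 (0.444 to 0.486) that was 0.555 (0.53 to 0.582) without the Lyve1- and Folr2-high cells.

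Proliferating macrophages had no gene at least 2-fold higher, beside 7.15% of 11036 genes. Ccl5, Ccl6 and Ccl8 were at least 2-fold lower in them, beside 4.39% of 11036 genes, with ratios of 0.301 (0.278 to 0.326), 0.319 (0.276 to 0.366) and 0.44 (0.411 to 0.471). Without the Lyve1- and Folr2-high cells in the reference these were 0.298 (0.275 to 0.322), 0.438 (0.379 to 0.504) and 0.509 (0.475 to 0.545), the last above the 2-fold limit. Ccl24 had 0 UMIs there. Over all states and without Ccl24, Ccl5, Ccl6, Ccl8 and Ccl9 were at least 2-fold higher in at least 1 state, beside 34.5% of 11036 genes. Ccl4, Ccl5, Ccl6, Ccl8, Ccl9 and Ccl12 were at least 2-fold lower in at least 1, beside 19.1% of 11036 genes. Ccl2, Ccl3 and Ccl7 passed 2-fold in no state. The median log2 ratio was 0.13 over the 10 genes and -0.01 over all genes for the interferon-gene state, -0.30 over the 10 genes and -0.14 over all genes for the Arg1-high state, -0.49 over the 10 genes and 0.07 over all genes for the proliferating state and -0.18 over the 10 genes and 0.18 over all genes for the Lyve1- and Folr2-high state.

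**Figure D4:**
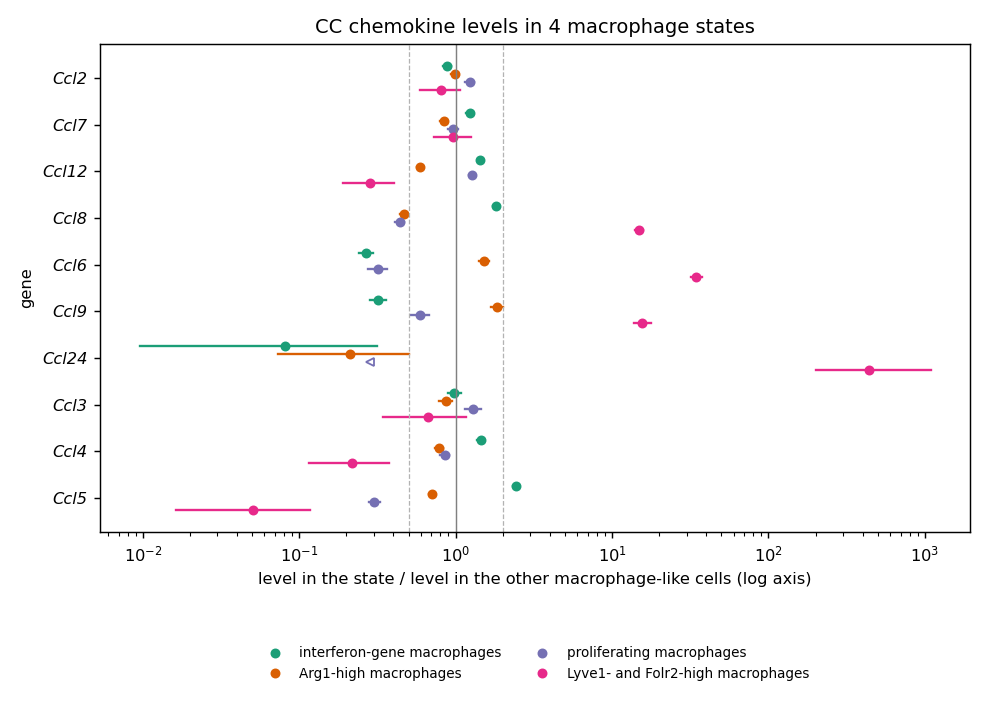
Points give the level of each chemokine in 1 of 4 macrophage states over its level in the other macrophage-like cells (log axis), with exact 95% counting intervals, dashed lines at 2-fold, and an open triangle for the limit of 0 UMIs. Ccl8, Ccl6, Ccl9 and Ccl24 lie far right in Lyve1- and Folr2-high macrophages, at ratios of 14.8, 34.5, 15.6 and 439, while Ccl5 lies right of 2-fold in interferon-gene macrophages only. The Ccl24 points rest on 36 UMIs in the Lyve1- and Folr2-high cells and 8 UMIs outside them, so none is counted as a call.

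T and NK-like cells had the highest levels of Ccl3, Ccl4 and Ccl5. Ccl5 stood at 2083 CPM (1985 to 2185) in them, 765 CPM (719 to 814) in monocyte-like and 703 CPM (689 to 717) in macrophage-like cells. Ccl4 stood at 762 CPM (703 to 824) against 423 CPM (412 to 434), and Ccl3 at 435 CPM (391 to 483) against 129 CPM (123 to 135). The ratios to macrophage-like cells were 2.96 (2.81 to 3.12), 1.8 (1.65 to 1.96) and 3.38 (3 to 3.79). Of the UMIs in kept cells, Shisal2b- and Rhox5-high cells held 70.8% of the Ccl5, and macrophage-like cells 79.7% of the Ccl4 and 71% of the Ccl3. T and NK-like cells held 3.75% of the Ccl5, 8.42% of the Ccl4 and 14.1% of the Ccl3. Ccl3 and Ccl5 were at least 2-fold higher, beside 14.1% of 11341 genes, and Ccl2, Ccl6, Ccl7, Ccl8, Ccl9 and Ccl12 at least 2-fold lower, beside 16% of 11341 genes. The macrophage genes of the free RNA scale stood at 1.06% to 23% of their macrophage-like level in this cluster, and Ccl6, Ccl7, Ccl8, Ccl9 and Ccl12 at 1.11% to 6.43%. Tyrobp, which NK cells also use, set the top of the macrophage gene range. The 5 B cell genes summed to 262 CPM and the 5 mast cell genes to 66.8 CPM in this cluster, against 76.3 and 1.45 CPM in macrophage-like cells. The median log2 ratio to macrophage-like cells was -2.95 over the 10 genes and 0.07 over all genes.

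T cells were cells of the cluster with a UMI of Cd3d, Cd3e or Cd3g (118 cells), and NK cells those without one that had a UMI of Ncr1, Klrb1c or Klre1 (13 cells). T cells held 2348 CPM (2228 to 2473) of Ccl5, 1006 CPM (928 to 1089) of Ccl4 and 577 CPM (518 to 641) of Ccl3. In Cd8 T cells (56) the levels were 2467 CPM (2309 to 2633), 1000.5 CPM (901 to 1108) and 788 CPM (699.6 to 884), and in Cd4 T cells (32) they were 1586 CPM (1378 to 1816), 1828 CPM (1605 to 2074) and 463 CPM (354 to 594). The Cd8 to Cd4 ratio was 1.56 (1.34 to 1.82) for Ccl5, 0.547 (0.464 to 0.646) for Ccl4 and 1.7 (1.29 to 2.28) for Ccl3. None reached 2-fold either way, beside 8.61% of 3216 genes at least 2-fold higher and 12.1% at least 2-fold lower in Cd8 T cells. In Cd4 T cells 1 cell held 56 of the 61 Ccl3 UMIs and 1 cell 230 of the 241 Ccl4 UMIs, so both ratios rest on single cells. The share of cells with Ccl4 ran the other way, with 42.9% of Cd8 and 21.9% of Cd4 T cells, or 24.1% (13.5 to 37.6) and 9.38% (1.98 to 25) after thinning, so no order is read for Ccl4. NK cells had 1581 CPM (1387 to 1795) of Ccl5 but 1 UMI of Ccl4 and 0 of Ccl3. When the cells were split by clustering instead, the cluster with raised NK genes held 78 cells, of which 64 had a Cd3 UMI, and it had 478 CPM of Ccl3 and 616 CPM of Ccl4. The low Ccl3 and Ccl4 of NK cells thus holds for the 13 cells defined by single markers and not for that cluster.

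Few cells carried most of these transcripts. In T cells, Ccl5 was seen in 69.5% (60.3 to 77.6), Ccl4 in 29.7% (21.6 to 38.8) and Ccl3 in 13.6% (7.95 to 21.1) of the cells, or 50%, 16.4% and 7.27% after thinning to 1000 UMIs. In thinned Shisal2b- and Rhox5-high cells, Ccl4 and Ccl3 were seen in 0.878% and 0.11%. For each gene taken alone, the 12 of 118 cells with the most UMIs of it held 98% of the Ccl3, 94.3% of the Ccl4 and 54.4% of the Ccl5 UMIs. In Cd4 T cells 4 cells held 98.8% of the Ccl4 UMIs. In NK cells 2 of 13 cells held 97.5% of the Ccl5 UMIs. The counting intervals above do not cover this spread between cells.

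**Figure D5:**
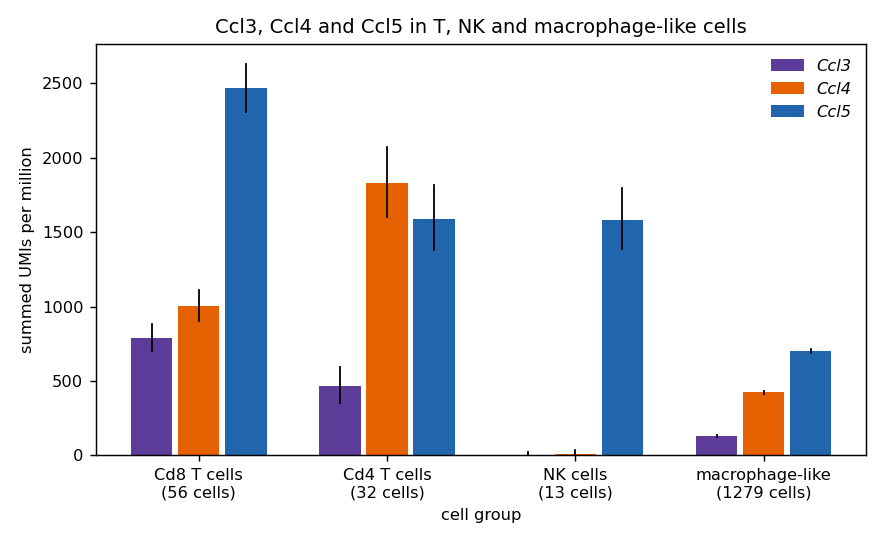
Bars give summed UMIs per 1000000 of Ccl3, Ccl4 and Ccl5 in Cd8 T, Cd4 T, NK and macrophage-like cells, and black lines are exact 95% Poisson intervals that cover counting error only. Ccl5 is highest in Cd8 T cells at 2467 CPM, Ccl4 in Cd4 T cells, mostly from 1 cell, at 1828 CPM, and NK cells show almost no Ccl3 or Ccl4.

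DC-like cells were low in the whole set. 9 of the 10 genes, all but Ccl24, were at least 2-fold lower than in macrophage-like cells, beside 14.4% of 11120 genes, and none was at least 2-fold higher, beside 9.44% of 11120 genes. The median log2 ratio was -3.16 over the 10 genes and -0.08 over all genes. Ccl5 was the highest of them at 237 CPM (193 to 289), seen in 19.5% (8.82 to 34.9) of thinned cells, followed by Ccl2 at 94.4 CPM (67.1 to 129). Ccl3, Ccl7 and Ccl12 had 3 UMIs each in 41 cells.

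CAF-like cells had Ccl2, Ccl7, Ccl8 and, less far, Ccl5 above the free RNA level of macrophage genes and were low in most others. Ccl2 was at 391 CPM (335 to 453), Ccl7 at 275 CPM (228 to 328) and Ccl8 at 266 CPM (220.1 to 318). They stood at 91.4%, 67.4% and 37.3% of their macrophage-like level, where the 8 macrophage genes stood at 0.879% to 4.14%. 7 genes were at least 2-fold lower than in macrophage-like cells (Ccl3, Ccl4, Ccl5, Ccl6, Ccl8, Ccl9 and Ccl12), beside 13.8% of 11420 genes, and none at least 2-fold higher, beside 22.9% of 11420 genes. The median log2 ratio was -3.73 over the 10 genes and 0.15 over all genes. Ccl5 stood at 12.7% of its macrophage-like level, from 40 UMIs. Ccl3 had 0 UMIs, which allows a level of up to 6.7 CPM, and Ccl12 had 2. The group ranged from 32 to 283 cells over the other settings, and the Ccl2 ratio from 0.913 to 2.07 with it.

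Within single macrophage-like cells, some pairs were seen together more often than their single shares give. Over 1278 cells thinned to 1000 UMIs, Ccl3 and Ccl4 were both seen in 4.77%, which was 3.14 times the product of their single shares. The factor was 2.74 for Ccl6 and Ccl9, 1.83 for Ccl7 and Ccl12 and 1.71 for Ccl2 and Ccl7. It was 1.74 for Ccl3 and Ccl7, which are not neighbors, and below 1 for the neighbors Ccl8 and Ccl12 (0.909) and for Ccl7 with Ccl9 (0.685). These factors rest on 18 to 142 cells with both genes, and pairs with Ccl24 rest on at most 3 cells. All cells share 1 library, and states mix in these shares.

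Across the 9 groups, the gene most like Ccl6 among 11910 genes was Ccl9, with a Pearson correlation of log2(CPM + 10) of 0.99, and the reverse held too. Atp6v1b2, a subunit of the proton pump of acidic vesicles, was among the 3 nearest for both. The gene most like Ccl3 was Ccl4 (0.97), while Ccl4 was most like Cd79b (0.98), a B cell receptor gene, with Ccl3 next. Stat5b and Klhl6 followed for Ccl3, Dgkz for Ccl4, Atp6v1e1 was second for Ccl6 and Cd300ld for Ccl9. The 3 genes nearest to Ccl12 were Ntpcr, Ms4a7 and 4930455G09Rik, with Ms4a7 a macrophage gene of the free RNA scale. Ccl2 was nearest to Mrpl27, Enkd1 and Rpp40. Ccl5 was nearest to Nat8f1, Mien1 and Zfp119a, Ccl7 to Camk2d, Sfxn5 and Chka. Ccl8 was nearest to Scamp5, Nudt13 and Snx13, Ccl24 to Ms4a8a, Lrg1 and Cxcl13. For these 5 genes the values ran from 0.92 to 0.98. The first pairs depend on the constant added: with log2(CPM + 1), Ccl6 was nearest to Trim25, then Ccl9, and the 3 nearest to Ccl9 did not include Ccl6. Ccl3 was then nearest to Rasal3, with Ccl4 still among its 3, and the 3 nearest to Ccl4 did not include Ccl3. With 9 points from 1 library and so many genes, such values are descriptions.

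Of the 12 other CC, XC and CX3C ligands listed, 5 reached 100 CPM in a named group, each in 1 group. Ccl17 at 329 CPM (276 to 389) and Ccl22 at 242 CPM (197 to 294), the Ccr4 ligands, did so in DC-like cells. Ccl1 stood at 389.8 CPM (342 to 443) in T cells, with 1039 CPM (873 to 1229) in Cd4 and 273 CPM (222 to 332) in Cd8 T cells. Xcl1, which attracts cross-presenting dendritic cells, stood at 2018 CPM (1798 to 2258) in NK cells and 31.2 CPM (18.8 to 48.8) in T cells. The spread of Ccl1 and Xcl1 over the 32 Cd4 T and 13 NK cells is not given here, so these levels may rest on few cells. Ccl11, an eotaxin like Ccl24, stood at 141 CPM (108 to 179.9) in CAF-like cells.

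Of the receptors described here, Ccr1, Ccr2 and Ccrl2 reached 20 CPM in a named group. Ccr2, the receptor of Ccl2, Ccl7 and Ccl12, stood at 289 CPM (260.4 to 319) in monocyte-like, 52.5 CPM (48.7 to 56.4) in macrophage-like and 121 CPM (98.4 to 148) in T and NK-like cells. NK cells had 285 CPM (206 to 383) and Cd4 T cells 258 CPM (179 to 360.5) of Ccr2, not told apart from monocyte-like cells by these intervals. Ccr1 stood at 241 CPM (216 to 269) in monocyte-like and 186 CPM (179 to 194) in macrophage-like cells. Ccrl2, an atypical receptor that does not signal in the usual way, stood at 259 CPM (246 to 272) in Arg1-high and 139 CPM (129 to 149.9) in interferon-gene macrophages. Monocyte-like cells had 255 CPM (228 to 283) of Ccrl2, not told apart from Arg1-high macrophages by these intervals. In Shisal2b- and Rhox5-high cells these 3 lay between 0.341 and 2.03 CPM. Ccr8 and Ccr3, the receptors of Ccl8 and Ccl24, had 1 and 2 UMIs in all kept cells. The Ccr8 UMI gave 7.59 CPM (0.192 to 42.3) in Cd4 T cells. Ccr3 was highest in Cd8 T cells at 2.73 CPM (0.069 to 15.2), from 1 UMI.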

How the data were processed

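The study made 1 library per arm with Chromium Single Cell 3' v3.1 chemistry, and the control library is analysed here. The deposited matrix holds raw UMI counts per gene and called cell, made by the authors with Cell Ranger from reads aligned to GRCm38 (mm10). The matrix header names version 5.0.1 and the study's methods name CellRanger V3. The values are whole numbers, and no correction for free RNA is stated in the sources used here.

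Cells over 20% mitochondrial UMIs (667) and 197 doublets, scored against simulated pairs, were left out. No cell had under 200 genes. Log-normalized counts of 2000 variable genes, without chemokine ligands, gave 30 principal components and Leiden clusters at resolution 0.5. All 1771 myeloid-like cells, which gave the macrophage-like, monocyte-like and DC-like groups, were clustered again on 1000 genes and 15 components. Cells of clusters without a name were clustered again in the same way. The method of choosing variable genes was set after first clusters had been seen. Clusters with Shisal2b and Rhox5 both at least 5 times their level in the cluster highest in Cd68 were named first. Any other cell type or state name needed at least 3 markers raised at least 2-fold with at least 5 UMIs. For cell types, at least 50% of the cells also had to carry markers, and shallow clusters needed a marker among their leading genes. Where several lists passed, the highest mean log ratio decided. Macrophage-like was tried last among myeloid subclusters, against cells that were not myeloid-like.

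Levels (CPM) divide the summed UMIs of a gene by all UMIs of the cells, times 1000000, with exact Poisson intervals, exact conditional intervals for ratios and Clopper-Pearson intervals for shares. A gene counted as higher or lower at a ratio of at least 2 or at most 0.5, with at least 20 UMIs in both groups together, and a group at 0 was set to 3 UMIs. Called shares over all genes that could pass are printed beside each count. Depth ranged from 511 to 231902 UMIs per called cell.

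The genes named are the 10 chemokines, other ligands at 100 CPM and receptors at 20 CPM or more in a named group, and the 3 genes most like each chemokine. An item that this rule would name is not reported here. These genes, the marker lists and the comparisons were chosen with earlier results of these data known. Alternatives covered filters, doublets, clustering settings, levels, thinning and the fold. Clustering used leidenalg 0.10.2 with igraph 0.11.9 and scikit-learn 1.9.0, intervals used scipy 1.17.1, and tables and plots used Python 3.11.15 with numpy 2.4.6, matplotlib 3.10.9 and pandas 2.3.3.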

Additional observations from a re-analysis of the deposited data

Results flagged for a closer look

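Ccl21a and Ccl20 drew attention because their level in cells of clusters without a name, which enter no comparison, lay above that in every named group. Ccl21a, a ligand of Ccr7 that guides dendritic cells and T cells into lymph vessels and lymph nodes, stood at 1100.0 CPM (1032 to 1171, 975 UMIs), and of these UMIs 973 lay in 98 cells led by Scgb1a1, S100a9 and S100a8. Near-identical copies of Ccl21a exist in the mouse genome, so the gene of origin is uncertain. Ccl20, the ligand of Ccr6, stood at 54.2 CPM (39.9 to 71.8, 48 UMIs), with 36 UMIs in the same 98 cells and 12 in 55 cells led by Saa3 and Lcn2. In macrophage-like, monocyte-like, DC-like, T and NK-like, CAF-like and Shisal2b- and Rhox5-high cells neither gene passed an upper bound of 8.93 CPM, and in the 22 Lyve1- and Folr2-high macrophages, where both had 0 UMIs, the bound was 26.4 CPM. The part of free RNA and of cell quality in these values was not tested.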

How the results depend on the processing

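Of 181 recomputed counts, 166 stayed within 1.5 times the value reported. Of 1294 ratios, 921 stayed within the counting interval of the value reported and 373 moved out of it. No called ratio turned from higher to lower or back. Part of the 921 ratios and 166 counts could not move. A 3-fold limit leaves every ratio as it was. Leaving out the Malat1-high cluster and T and NK-like cells without a marker changes only values of those groups. The number of chemokines at least 2-fold higher in monocyte-like cells was 2 and fell to 1 with a limit of 10% mitochondrial UMIs, with 3000 variable genes, with 20 principal components and with a 3-fold limit, and to 0 with the mean of per-cell CPM and with cells thinned to 1000 UMIs. The number lower there was 3, and 1 with 3000 variable genes or a 3-fold limit. In CAF-like cells 1 was higher, against 0, with 3000 variable genes and with the mean of per-cell CPM. In macrophage states 8 were higher, against 5, both with Ccl24 counted, at the higher clustering resolution. In T and NK-like cells 1 was higher, against 2, with a 3-fold limit. Of 60 pairs of a chemokine and a group, 22 against 39 had a UMI in over 10% of cells after thinning. Of the 30 genes most like a chemokine, 16 stayed with log2(CPM + 1). The cause of these changes was not tested. DC-like cells were not found at the lower resolution or with 20 principal components, and interferon-gene macrophages not at the lower resolution. Ratios of Ccl24 could not be computed after thinning. Leaving out the Malat1-high cluster and T and NK-like cells without a marker, an alternative chosen after seeing the data, changed no count by over 1.5 times. Without the Lyve1- and Folr2-high macrophages, also chosen after seeing the data, 3 chemokines, against 7 with Ccl24 counted, were lower in a macrophage state, that state itself being left out. No paired analysis was possible because there is 1 library, and the depth of the 22 Lyve1- and Folr2-high, 13 NK and 41 DC-like cells limits what can be seen in them.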

Other observations

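The clusters without a name were shallow, and the values of their chemokines differed by cluster. The 55 cells led by Saa3 and Lcn2 (median 618 UMIs) had 2014 CPM of Ccl2 from 77 UMIs, 994 CPM of Ccl7 from 38, 392 CPM of Ccl19 from 15 and 340.0 CPM of Ccl11 from 13. The 144 cells led by the mast cell proteases Mcpt2, Cma1 and Mcpt4 (median 1413 UMIs) had 888 CPM of Ccl2, 617 of Ccl8, 604 of Ccl7 and 513 of Ccl12. The 173 cells led by Igkc and Jchain had 976 CPM of Ccl2 and 357 of Ccl5, and the 156 cells led by globin genes had 849 and 359 CPM. The 98 cells led by Scgb1a1 and S100a9 had 415 CPM of Ccl6, 402 of Ccl4 and 286 of Ccl2. How much of these levels is free RNA was not tested.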
